A study of Mus musculus with 2 samples.

Results

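The genes described here are 7 members of the epidermal growth factor (EGF) family, 4 ligands and 3 receptors, out of 25906 genes listed in both count matrices. The ligands are Areg (amphiregulin, ENSMUSG00000029378), Ereg (epiregulin, ENSMUSG00000029377), Btc (betacellulin, ENSMUSG00000082361) and Hbegf (heparin-binding EGF-like growth factor, ENSMUSG00000024486). The receptors are Egfr (ENSMUSG00000020122), Erbb2 (ENSMUSG00000062312) and Erbb3 (ENSMUSG00000018166). All 7 symbols were found in both matrices. They were chosen by their transcript levels in these same libraries, across the populations and between the clones, so every value below is a description and none is a test.

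The cells were mouse induced myogenic progenitor cells (iMPCs), a muscle stem cell-like culture made by reprogramming fibroblasts. Mouse embryonic fibroblasts (MEFs), MyoD-WT or MyoD-KO and both labelled with the strain Myod1tm1Jae, were reprogrammed by Myf6 overexpression together with 3 small molecules. Of these, forskolin activates adenylyl cyclase, RepSox inhibits the TGF-beta type I receptor and CHIR99021 inhibits the kinase GSK3. Colonies that no longer depended on Myf6 were expanded for 4 passages in 5 µM forskolin, 5 µM RepSox, 3 µM CHIR99021, 10 ng/mL bFGF and 10% FBS. Each genotype was represented by 1 clone and 1 droplet library of 3' transcript tags, made from 12000 cells. Genotype, clone and library therefore cannot be told apart in any comparison below.

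The MyoD-WT library held 7318 cells after filtering, with 279122888 unique molecular identifiers (UMIs) and a median of 35522 per cell. The MyoD-KO library held 5782 cells with 253038707 UMIs and a median of 40929.5. The libraries shared 9 cell barcodes. Myod1 was at 162 CPM (UMIs of a gene per 1000000 UMIs) in the MyoD-WT library and 63.0 CPM in the MyoD-KO library. Which sequence the knockout allele lacks is not given in the labels, and 3' tags may lie outside it, so this level does not check the genotype.

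EGF-family ligands are made as membrane-bound precursors, are released by ADAM metalloproteases, and bind ERBB receptor tyrosine kinases on the same or neighbouring cells. Amphiregulin and EGF itself bind EGFR, epiregulin, betacellulin and HB-EGF bind EGFR and ERBB4, and the neuregulins bind ERBB3 and ERBB4. ERBB2 has no known ligand and acts as a partner of the others, ERBB3 has a weak kinase and signals through its partners, and activated receptors feed the RAS, ERK and PI3K pathways. In muscle, ERBB2 and ERBB3 are known as neuregulin receptors at the neuromuscular synapse and spindle, and EGFR is expressed by satellite cells, the stem cells of muscle.

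The promoters of Areg and Egfr are shown because, in the MyoD-KO library, they belong to the ligand with most UMIs and to the receptor with most UMIs in Pax7-positive cells. Both are the 250 bases before the RefSeq transcription start on GRCm38.p6, on the plus strand. The Areg window is chr5:91139349-91139598 and the Egfr window is chr11:16751953-16752202. Capitals mark matches to the cAMP response element, TGACGTCA, and to its core, TGACG, on either strand.
Areg: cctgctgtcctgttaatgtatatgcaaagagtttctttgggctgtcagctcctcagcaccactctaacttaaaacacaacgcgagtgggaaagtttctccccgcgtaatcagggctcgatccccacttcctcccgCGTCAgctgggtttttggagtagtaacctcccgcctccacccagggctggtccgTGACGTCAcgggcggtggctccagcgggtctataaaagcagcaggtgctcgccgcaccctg
Egfr: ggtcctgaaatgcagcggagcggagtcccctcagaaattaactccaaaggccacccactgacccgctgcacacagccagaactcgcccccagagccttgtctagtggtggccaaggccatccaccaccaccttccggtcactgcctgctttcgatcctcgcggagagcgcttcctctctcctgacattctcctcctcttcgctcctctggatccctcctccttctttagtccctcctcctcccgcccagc

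The Areg window held 1 full element, beginning 61 bases before the start, a match found in 1.55% of 32851 mouse promoter windows of the same length. The core, present in 17.8% of these windows, matched at 115, 61 and 58 bases before the Areg start. The matches at 61 and 58 lie within the full element, and the match at 115 is on the reverse strand and overlaps an E-box, CAGCTG, at 112, a motif found in 13% of windows. The letters of the AP-1 site TGANTCA (6.75% of windows), the hypoxia response core ACGTG (16.6%) and the TEAD site GGAATG (12.6%), searched on both strands, were absent from this window. The Egfr window held none of these 6 motifs. Btc had a core match 113 bases before its start and an E-box at 27, and Erbb2 had one at 171 and a TEAD match at 88. Such matches are letters in a window and no binding was measured here. RefSeq windows were used for 4 of the 7 genes, and Ereg, Erbb3 and Hbegf are named only. In the RefSeq gene order, Epgn, Ereg, Areg and Btc are neighbours, between Mthfd2l and Parm1.

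Cells were assigned to 5 populations and a remainder by genes outside the family, in a fixed order. Muscle-rich cells had at least 5% of their UMIs in 31 sarcomere genes. Crabp1/Dcn-positive cells had at least 100 CPM of Crabp1 plus Dcn, Car9-positive cells at least 50 CPM of Car9, Myog-positive cells at least 200 CPM of Myog and Pax7-positive cells at least 50 CPM of Pax7. Of the MyoD-WT cells, 56.8% were Pax7-positive, 17.2% Myog-positive, 12.7% muscle-rich, 2.94% Car9-positive and 10.3% in the remainder. The MyoD-KO shares were 45.9%, 15.1%, 18.6%, 10.0% and 7.38%, and 2.99% of cells (173) were Crabp1/Dcn-positive. In the MyoD-WT library 8 cells passed the Crabp1/Dcn gate, and 1 of them was assigned to the muscle-rich cells. Only 7 MyoD-WT cells were thus Crabp1/Dcn-positive, so that population was compared with others within the MyoD-KO library alone.

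The populations were checked on genes that their gates did not use where such genes were listed. Cells called progenitors below are named by the Pax7 gate. Progenitor genes other than Pax7 were mixed (MyoD-WT, then MyoD-KO). Msc was at 73.4 CPM and 20.6 CPM in Pax7-positive cells, against 8.54 CPM and 2.34 CPM in muscle-rich cells. Itga7 was at 34.5 CPM and 73.3 CPM, against 59.4 CPM and 174 CPM. In Pax7-positive cells Vcam1 was at 0.0556 CPM and 46.4 CPM and Calcr at 14.3 CPM and 0.336 CPM. The gate thus did not match all markers between libraries. Mymk, the myoblast fusion gene, which is not among the sarcomere genes, was at 502 CPM in MyoD-WT and 576 CPM in MyoD-KO muscle-rich cells. In Myog-positive cells Mymk was at 205 CPM and 248 CPM and Mymx at 139 CPM and 122 CPM. Their Pax7-positive levels were 5.996 CPM and 6.51 CPM, and 3.56 CPM and 3.35 CPM. Mymx was at 253 CPM and 110 CPM in muscle-rich cells. Cdkn1c was at 2049 CPM and 6475 CPM in Myog-positive cells, against 431 CPM and 2765 CPM in Pax7-positive cells. Dll1 was at 44.9 CPM and 62.1 CPM, against 25.6 CPM and 10.0 CPM in the same populations. All 10 of 10 listed hypoxia genes, Car9 among them, reached 10 CPM in Car9-positive cells of both libraries, with summed levels of 2000 CPM and 2492 CPM against 689 CPM and 992 CPM in Pax7-positive cells. MyoD-KO muscle-rich cells had a like sum, 1992 CPM. The Crabp1/Dcn-positive cells had a summed level of 7239.7 CPM over 11 fibroblast genes, of which the gate's own genes Crabp1 and Dcn gave 3829 CPM and 464 CPM. Only 6 of the 11 reached 10 CPM, Col1a2 was at 0 and Col1a1 at 6.07 CPM, so these cells are called by their gate and not fibroblasts. Across populations of at least 50 cells, summed markers of epithelium (8 genes) were between 0.305 CPM and 10.6 CPM, of endothelium (4) between 0.745 CPM and 1.64 CPM, of immune cells (5) between 0.869 CPM and 4.20 CPM, and of Schwann and neural cells (5) between 1.98 CPM and 12.5 CPM. Epcam was at 0 in the MyoD-WT library and Ptprc at 0 in the MyoD-KO library. A list of 5 smooth muscle genes was at 1084 CPM in the MyoD-WT and 357 CPM in the MyoD-KO library, most of it Acta2 (815 CPM and 307 CPM).

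Areg was the most abundant of the 4 ligands in the MyoD-KO library and was concentrated in a small number of its cells. Over all cells it was at 3.55 CPM (95% interval 3.34 to 3.78, from 992 UMIs) in the MyoD-WT library and at 143 CPM (141 to 144, from 36077 UMIs) in the MyoD-KO library, a ratio of 40.1 (37.7 to 42.8). These intervals, like all those below, cover counting error only, and not the spread between cells or between clones. Ereg was 23.8 times higher in the MyoD-KO library (20.4 to 27.9), at 14.7 CPM against 0.616 CPM. Btc was 15.1 times higher (12.2 to 18.9) but stayed at 4.92 CPM against 0.326 CPM. Hbegf was slightly lower, at 3.37 CPM against 4.43 CPM (ratio 0.760, 0.695 to 0.830). Among the receptors, Egfr was at 16.5 CPM in the MyoD-WT library and 39.6 CPM in the MyoD-KO library, Erbb2 at 2.29 CPM and 4.46 CPM, and Erbb3 at 31.3 CPM and 12.01 CPM. For a gene to be counted as higher or lower, its levels had to be at least 2-fold apart and to reach 10 CPM on the higher side. By that rule 3 of the 7 members (Areg, Ereg and Egfr) were higher in the MyoD-KO library, where 13.4% of all genes reaching 10 CPM were. Erbb3 alone was lower, against 3.37% of genes. Since the members were chosen with these values known, nothing is read from these shares.

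Amphiregulin transcripts were highest in the Crabp1/Dcn-positive cells of the MyoD-KO library, at 2017 CPM (1987 to 2047, 173 cells). The remaining cells followed at 544 CPM, Car9-positive cells at 156 CPM (151 to 161), Pax7-positive cells at 53.0 CPM (51.7 to 54.4), muscle-rich cells at 19.7 CPM and Myog-positive cells at 4.77 CPM (4.13 to 5.49). No neighbouring counting intervals in that order overlapped, which leaves out the spread between cells. Relative to Pax7-positive cells of the same library, Areg was 38.0 times higher in Crabp1/Dcn-positive cells, 10.3 times higher in the remainder, 2.94 times higher in Car9-positive cells and at 0.0900 of their level in Myog-positive cells. After each cell was thinned to 5000 UMIs, 87.8% of Crabp1/Dcn-positive cells (81.9 to 92.3) had an Areg UMI, against 37.6% of the remainder, 20.2% of Car9-positive, 10.96% of Pax7-positive and 1.40% of Myog-positive cells. Without thinning these shares were 97.7%, 47.5%, 37.1%, 29.4% and 12.03%. Median depths were 45645 UMIs in Crabp1/Dcn-positive and 43591 in Myog-positive cells, the population with the lowest level.

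**Figure D1:**
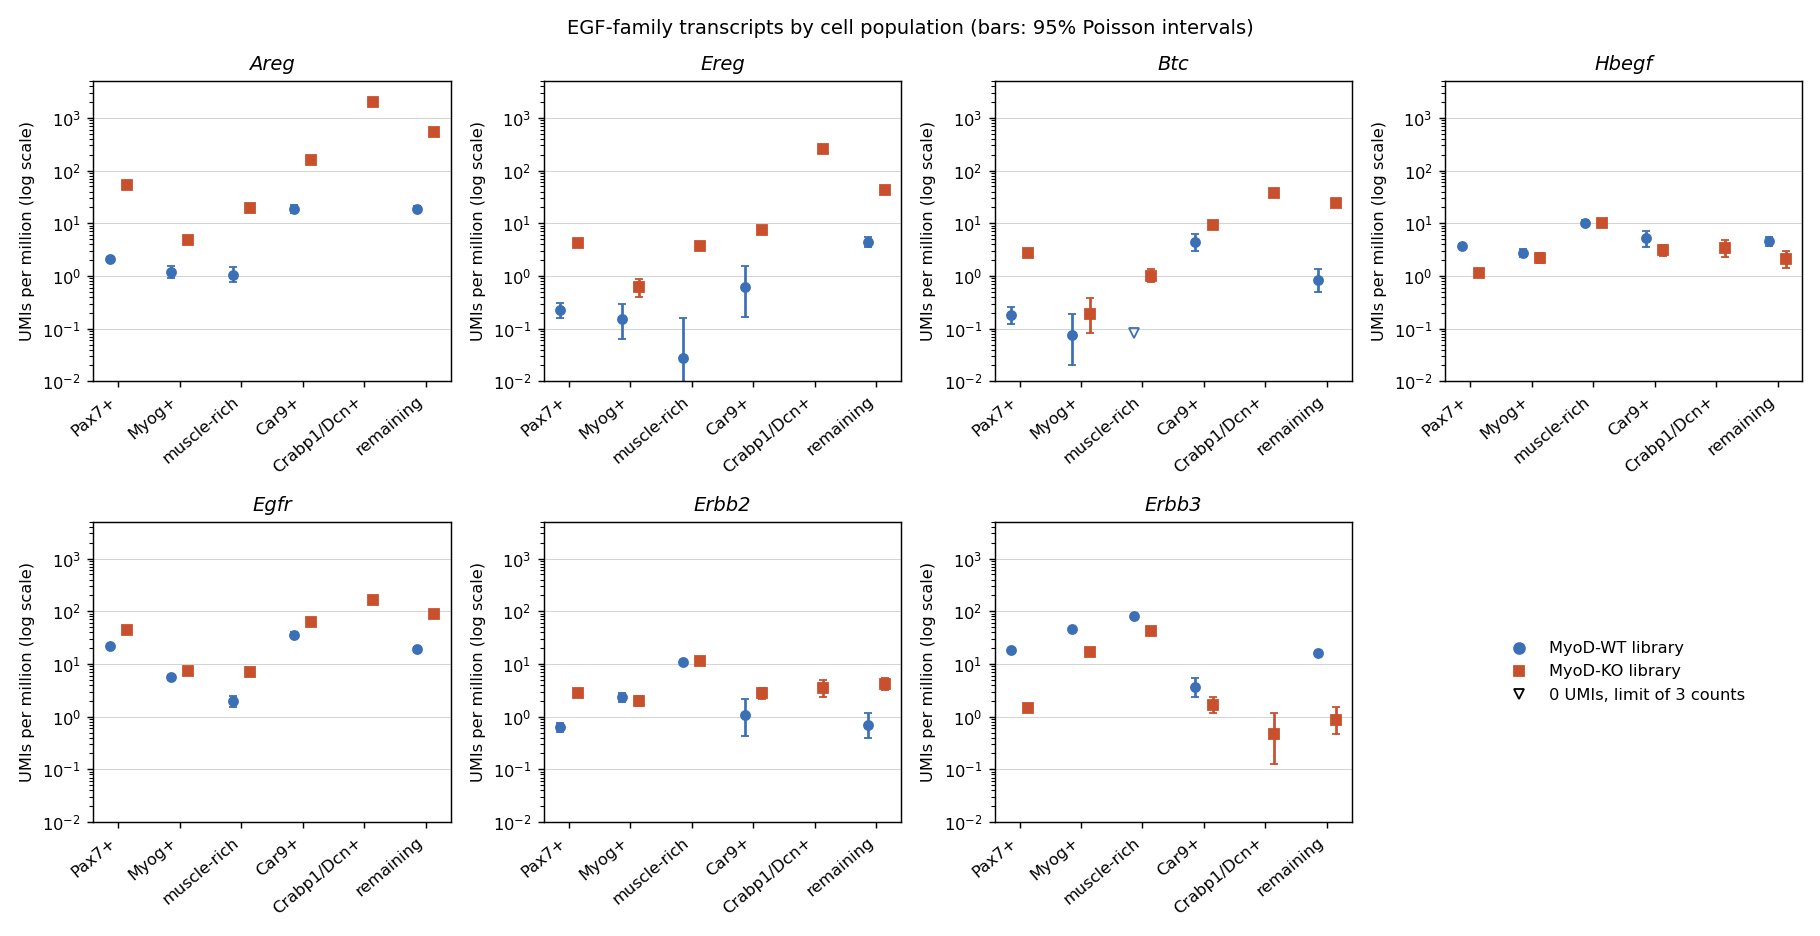
Level of each member (CPM, log axis) in each population of the MyoD-WT and MyoD-KO libraries. Points are summed UMIs with 95% counting intervals, and an open triangle marks a population with 0 UMIs at the limit set by 3 counts; the 7 MyoD-WT Crabp1/Dcn-positive cells are not shown. Areg reached 2017 CPM in MyoD-KO Crabp1/Dcn-positive cells and no more than 18.9 CPM in any MyoD-WT population shown.

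In the MyoD-WT library Areg was at 18.9 CPM in the remainder (17.1 to 20.8), 18.7 CPM in Car9-positive cells (15.6 to 22.4), 2.06 CPM in Pax7-positive, 1.20 CPM in Myog-positive and 1.06 CPM in muscle-rich cells. The first pair of levels had overlapping intervals, as did the last pair. Car9-positive cells thus stood 9.11 times above Pax7-positive cells in this library too. The level of the remainder rested largely on 1 cell that held 193 of all 992 Areg UMIs, and without it the level was 9.82 CPM. Smooth muscle markers were also high in that remainder, with Actg2 at 68.2 CPM and Myh11 at 11.1 CPM against 14.3 CPM and 0.179 CPM in Pax7-positive cells, and their part in the Areg level was not tested. The 7 MyoD-WT Crabp1/Dcn-positive cells held 32 Areg UMIs.

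Crabp1/Dcn-positive cells made up 2.99% of MyoD-KO cells and held 3.39% of the library's UMIs, but 47.9% of its Areg UMIs (47.4 to 48.4). The remainder held 22.2%, Pax7-positive cells 17.1%, Car9-positive cells 9.47%, muscle-rich cells 2.75% and Myog-positive cells 0.546%. In the MyoD-WT library the remainder held 40.5% of the few Areg UMIs, Pax7-positive cells 33.6% and Car9-positive cells 12.4% (10.4 to 14.6), a share that was 23.0% with the gates halved. The 95 MyoD-KO cells richest in Areg, 1.64% of the library, held as many of its UMIs as all other cells together, and of these 61 were Crabp1/Dcn-positive and 27 in the remainder. Within Crabp1/Dcn-positive cells the level per cell ranged widely, from 186 CPM at the 10th percentile through a median of 1359 CPM to 5100 CPM at the 90th and 12520 CPM at most. In the remainder the median cell had none and the 90th percentile was 1673 CPM.

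**Figure D2:**
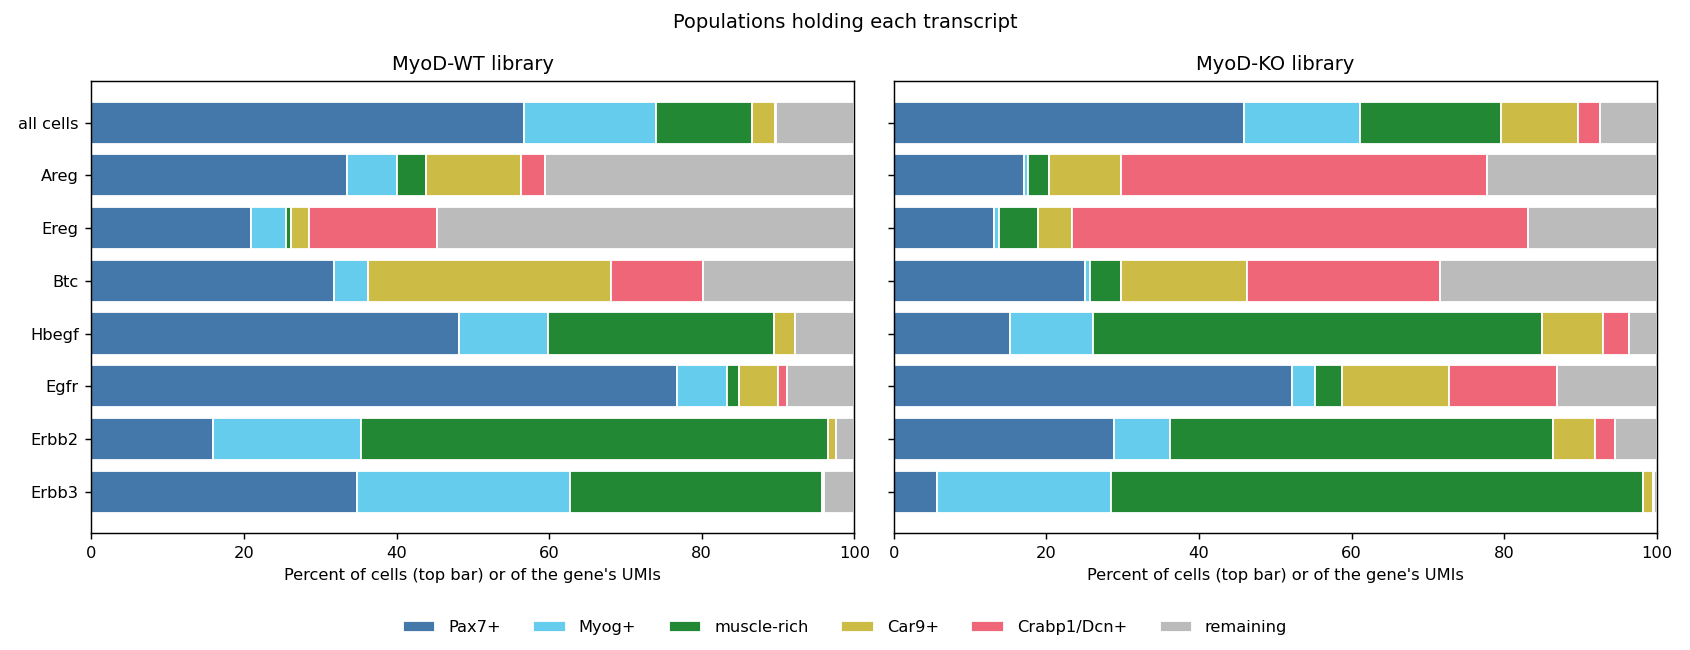
Share of each member's UMIs held by each population (bars, percent), with the share of cells in the top bar, in the MyoD-WT and MyoD-KO libraries. In the MyoD-KO library Crabp1/Dcn-positive cells are 2.99% of cells and hold 47.9% of Areg UMIs, while Pax7-positive cells hold 52.1% of Egfr UMIs and muscle-rich cells 69.8% of Erbb3 UMIs.

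Within populations set by the same gates Areg was higher in the MyoD-KO library throughout. The ratio was 25.8 in Pax7-positive cells (23.1 to 28.9), 3.99 in Myog-positive cells, 18.5 in muscle-rich cells (13.4 to 26.3), 8.31 in Car9-positive cells (6.94 to 10.0) and 28.8 in the remainder. In the remainder the ratio was 53.1 without the richest cell of each library. In Myog-positive cells the MyoD-KO level of 4.77 CPM was below the 10 CPM minimum. The muscle-rich value rested on few cells: 10 of the 1074 MyoD-KO muscle-rich cells also passed the Crabp1/Dcn gate, had a median of 97793.5 UMIs against 49108 in the others, and held 552 of the 993 Areg UMIs. Without these 10 cells Areg in muscle-rich cells was at 8.90 CPM (8.09 to 9.77), under the minimum. The part that paired cells in 1 droplet have in this value was not tested. Leaving the Crabp1/Dcn-positive population out of both libraries, but not these 10 muscle-rich cells, the log2 ratio of Areg over all cells was 4.48 instead of 5.33.

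There were 0.527 Areg UMIs per Crabp1 UMI in MyoD-KO Crabp1/Dcn-positive cells and 0.716 in muscle-rich cells, which were gated first. The muscle-rich ratio includes the 10 cells above that also passed the Crabp1/Dcn gate and held most of that population's Areg UMIs. It is not given without them, so nothing is read from its closeness to the first ratio. The gate lowers Crabp1 in the populations that come after it, so their ratios are not compared. The part of free RNA in the low Areg levels was not tested.

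Epiregulin, a ligand of EGFR and ERBB4, followed Areg at lower levels. Its MyoD-KO level was 259 CPM in Crabp1/Dcn-positive cells (248 to 270), 42.5 CPM in the remainder, 7.48 CPM in Car9-positive cells, 4.20 CPM in Pax7-positive cells, 3.75 CPM in muscle-rich cells and 0.606 CPM in Myog-positive cells. The Pax7-positive and muscle-rich intervals overlapped. Crabp1/Dcn-positive cells held 59.8% of the Ereg UMIs, the remainder 16.9% and Pax7-positive cells 13.2%. MyoD-WT cells held 172 Ereg UMIs in all, 94 of them in the remainder (4.41 CPM), and 27 of its 36 UMIs in Pax7-positive cells lay in 1 cell. The MyoD-KO to MyoD-WT ratio in Pax7-positive cells, 18.9, was 68.3 without the richest cell of each library. Without Crabp1/Dcn-positive cells the overall log2 ratio was 3.57 instead of 4.57, and Ereg no longer reached 10 CPM.

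Betacellulin, also a ligand of EGFR and ERBB4, was a low transcript with a flatter distribution. Its MyoD-KO level was 36.7 CPM in Crabp1/Dcn-positive cells (32.8 to 41.0), 24.0 CPM in the remainder (21.6 to 26.6), 9.34 CPM in Car9-positive cells, 2.69 CPM in Pax7-positive cells, 1.01 CPM in muscle-rich cells and 0.194 CPM in Myog-positive cells. Its UMIs were shared almost evenly by the remainder (28.4%), Crabp1/Dcn-positive cells (25.3%) and Pax7-positive cells (25.1%). The highest MyoD-WT level among populations of at least 50 cells was 4.42 CPM, in Car9-positive cells, and muscle-rich cells had 0 UMIs, which allows up to 0.0840 CPM.

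Hbegf, whose product binds heparin, had a different distribution from the other 3 ligands. It was highest in muscle-rich cells of both libraries, at 10.3 CPM (9.23 to 11.4) in MyoD-WT and 9.95 CPM (9.10 to 10.9) in MyoD-KO cells, a ratio of 0.970. In Pax7-positive cells it was at 3.68 CPM and 1.12 CPM. Muscle-rich cells therefore stood 2.78 times above Pax7-positive cells in the MyoD-WT library and 8.88 times above them in the MyoD-KO library, where they held 58.9% of all Hbegf UMIs. In MyoD-KO Crabp1/Dcn-positive cells Hbegf was at 3.38 CPM.

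Summed over the 4 ligands, the MyoD-KO library had 166 CPM, of which Areg gave 86.1%, and the MyoD-WT library 8.93 CPM, of which Areg gave 39.8%. The sum was 2316 CPM in Crabp1/Dcn-positive, 613 CPM in remaining, 176 CPM in Car9-positive, 61.0 CPM in Pax7-positive, 34.4 CPM in muscle-rich and 7.80 CPM in Myog-positive MyoD-KO cells. In MyoD-WT cells it lay between 4.13 CPM (Myog-positive) and 29.0 CPM (Car9-positive) in populations of at least 50 cells. A UMI counts 1 captured 3' end, so these sums are not scaled by transcript length.

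Splitting the Pax7-positive and Car9-positive cells showed that the ligands varied within them. Cycling cells were those with at least 3 UMIs of Mki67 and Top2a together. In MyoD-KO Pax7-positive cells Areg was at 116 CPM in 665 cells that were not cycling and 38.1 CPM in 1991 that were, with median depths of 31960 and 44038 UMIs. Ereg was at 13.8 CPM and 1.95 CPM and Btc at 8.75 CPM and 1.26 CPM in the same subsets. The MyoD-WT cells had the same order for Areg, 6.15 CPM against 1.73 CPM. Among MyoD-KO Car9-positive cells, Areg was at 363 CPM in the 130 without Pax7 or Myog and 107 CPM in the 400 with Pax7, and in MyoD-WT cells these levels were 45.2 CPM and 12.6 CPM.

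Egfr, the receptor for all 4 ligands, was a transcript of progenitors and of the populations with high ligand. In the MyoD-KO library it was at 165 CPM in Crabp1/Dcn-positive cells (157 to 174), 89.1 CPM in the remainder, 63.9 CPM in Car9-positive cells, 45.0 CPM in Pax7-positive cells (43.8 to 46.2), 7.37 CPM in Myog-positive cells and 7.08 CPM in muscle-rich cells. The last pair had overlapping intervals, and without the 10 cells that also passed the Crabp1/Dcn gate the muscle-rich level was 6.14 CPM. The MyoD-WT levels were 35.7 CPM in Car9-positive cells, 21.9 CPM in Pax7-positive cells, 19.0 CPM in the remainder, 5.63 CPM in Myog-positive cells and 1.96 CPM in muscle-rich cells. Pax7-positive cells held 76.8% of MyoD-WT Egfr UMIs (75.6 to 78.0) and 52.1% of MyoD-KO ones (51.1 to 53.1), beside 58.0% and 45.9% of all UMIs. With the gates doubled the MyoD-KO share was 46.9%. Of the MyoD-KO Egfr UMIs, Crabp1/Dcn-positive cells held 14.2%, Car9-positive cells 13.99% and the remainder 13.1%. Thinned to 5000 UMIs, 16.1% of MyoD-KO and 8.26% of MyoD-WT Pax7-positive cells had an Egfr UMI, and at 20000 UMIs 39.6% and 21.9%. In Myog-positive cells, the low reference, 3.15% and 0.876% had one at 5000 UMIs.

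Within populations Egfr was higher in the MyoD-KO library by 2.06 times in Pax7-positive cells (1.97 to 2.15), 1.79 times in Car9-positive cells, 1.31 times in Myog-positive cells, 3.61 times in muscle-rich cells and 4.70 times in the remainder. Only the Pax7-positive and remaining cells met the rule of 2-fold and 10 CPM. The Pax7-positive call depended on scaling, since the log2 ratio of 1.04 became 0.84 with TMM factors. In Pax7-positive cells the members counted as higher were Areg and Egfr (13.5% of genes were) and Erbb3 was lower (3.89%). In Myog-positive cells none was higher (10.4%) and Erbb3 was lower (4.35%), in muscle-rich cells Areg was higher (11.6%) and none lower (5.01%), and in Car9-positive cells Areg was higher (12.6%) and none lower (2.65%). In the remainder Areg, Ereg, Btc and Egfr were higher (16.1%) and Erbb3 lower (4.51%).

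**Figure D3:**
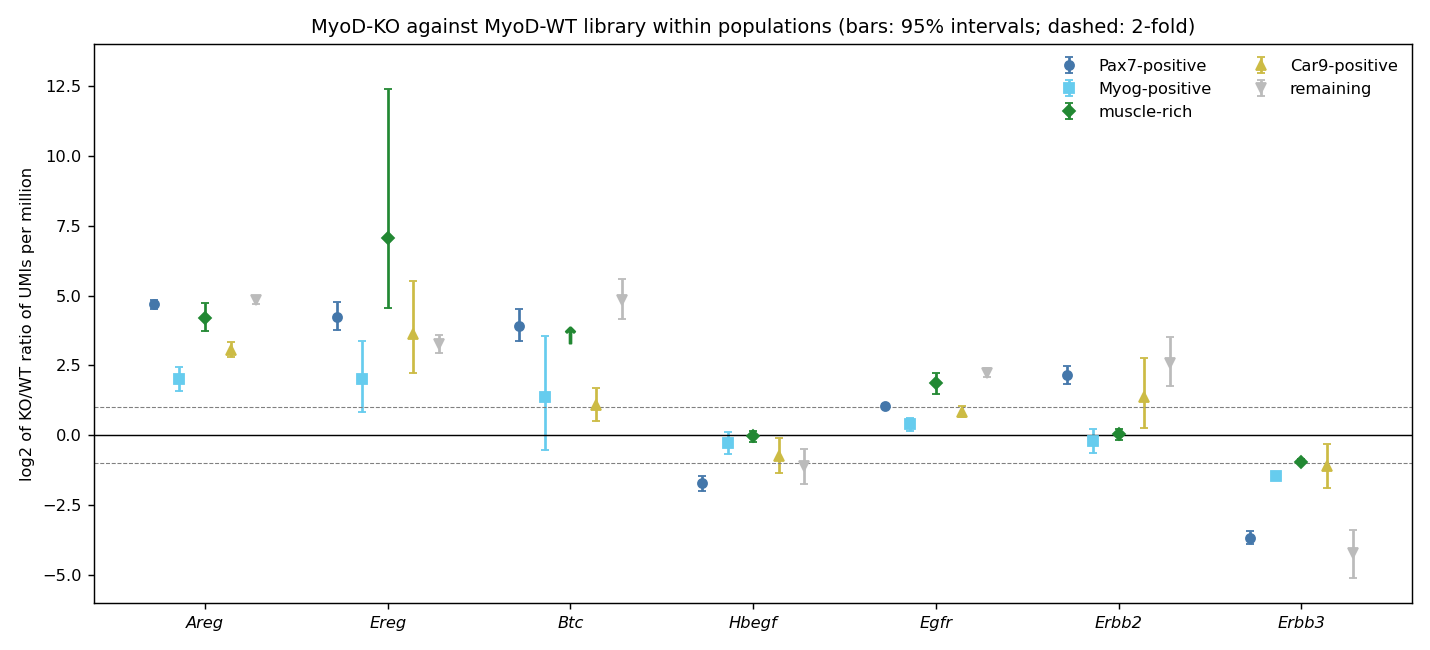
Log2 ratio of each member's level (CPM) in the MyoD-KO over the MyoD-WT library within 5 populations; bars are 95% counting intervals, dashed lines mark 2-fold and the arrow sets Btc in muscle-rich cells, which had 0 MyoD-WT UMIs, against the limit of 3 counts. Areg, Ereg, Btc and Egfr lie above 0 in each population, with an interval that spans 0 for Btc in Myog-positive cells, and Erbb3 lies furthest below 0 in Pax7-positive cells (ratio 0.0790) and the remainder (0.0545).

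Erbb3, a neuregulin receptor, had the opposite pattern, low in the MyoD-KO progenitors and highest in muscle-rich cells. Its MyoD-WT level was 80.7 CPM in muscle-rich cells (77.8 to 83.7), 45.7 CPM in Myog-positive cells, 18.8 CPM in Pax7-positive cells (18.1 to 19.4), 16.2 CPM in the remainder (14.5 to 18.0) and 3.66 CPM in Car9-positive cells. The MyoD-KO levels were 42.0 CPM in muscle-rich cells (40.3 to 43.9), 16.8 CPM in Myog-positive cells, 1.69 CPM in Car9-positive cells, 1.48 CPM in Pax7-positive cells (1.27 to 1.72), 0.881 CPM in the remainder and 0.467 CPM in Crabp1/Dcn-positive cells. The last 4 of these were close together, and each overlapped its neighbour. The MyoD-KO to MyoD-WT ratio was 0.0790 in Pax7-positive cells (0.0674 to 0.0921), 0.367 in Myog-positive cells (0.337 to 0.400), 0.461 in Car9-positive cells and 0.521 in muscle-rich cells. The Car9-positive log2 ratio, -1.12, turned direction with the gates doubled (0.71) and with the Car9 gate taken alone (0.76). Muscle-rich cells stood 28.4 times above Pax7-positive cells in the MyoD-KO library and 4.30 times in the MyoD-WT library. They held 69.8% of MyoD-KO Erbb3 UMIs and 33.0% of MyoD-WT ones, of which Pax7-positive cells held a further 34.8%.

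Erbb2, the receptor without a ligand, was low and had its highest level in muscle-rich cells, at 10.98 CPM (9.92 to 12.1) in MyoD-WT and 11.2 CPM (10.3 to 12.2) in MyoD-KO cells, a ratio of 1.02. Muscle-rich cells held 61.3% of MyoD-WT and 50.2% of MyoD-KO Erbb2 UMIs. In Pax7-positive cells it was at 0.630 CPM (0.514 to 0.765) and 2.81 CPM (2.51 to 3.13), 4.46 times higher in the MyoD-KO library, with both levels below 10 CPM. Its other levels lay between 0.704 CPM and 4.20 CPM in populations of at least 50 cells.

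**Figure D4:**
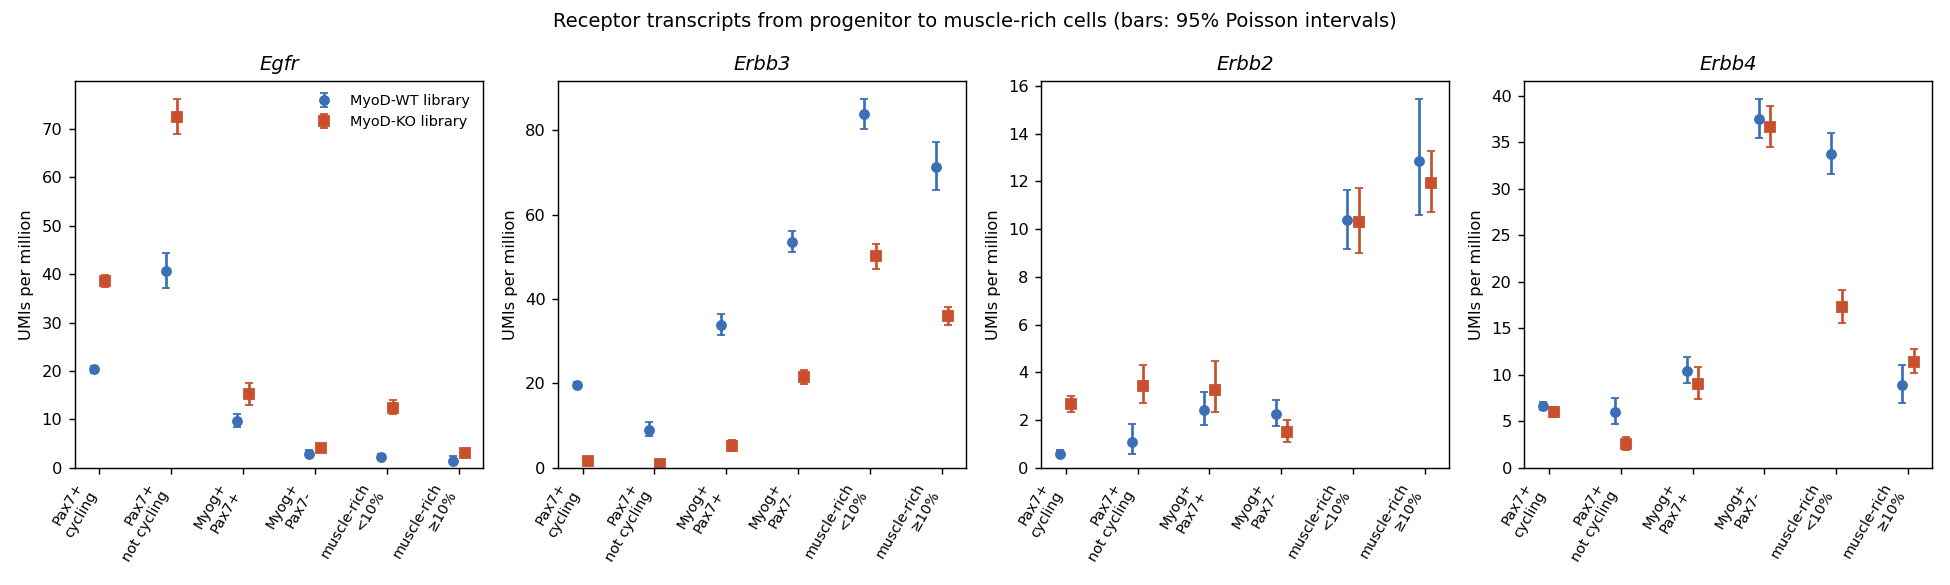
Levels of Egfr, Erbb3, Erbb2 and Erbb4 (CPM) in Pax7-positive cells that were cycling or not, Myog-positive cells with and without Pax7, and muscle-rich cells under and over 10% sarcomere UMIs, in both libraries with 95% counting intervals. In the MyoD-WT library Egfr lies at 40.6 CPM in non-cycling Pax7-positive cells and 1.37 CPM in the most sarcomere-rich cells, where Erbb3 lies at 9.06 CPM and 71.3 CPM.

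Along the order from progenitor to muscle, Egfr and Erbb3 levels crossed. In the MyoD-WT library Egfr was at 40.6 CPM in Pax7-positive cells that were not cycling, 20.3 CPM in cycling ones, 9.61 CPM in Myog-positive cells with Pax7 and 2.96 CPM in those without, and 2.16 CPM and 1.37 CPM in muscle-rich cells under and over 10% sarcomere UMIs. Erbb3 was at 9.06 CPM, 19.5 CPM, 33.8 CPM, 53.5 CPM, 83.8 CPM and 71.3 CPM in the same subsets. In the MyoD-KO library Egfr went through 72.5 CPM, 38.5 CPM, 15.2 CPM, 4.19 CPM, 12.46 CPM and 3.02 CPM, and Erbb3 through 0.812 CPM, 1.64 CPM, 5.12 CPM, 21.5 CPM, 50.1 CPM and 36.0 CPM. Among these 6 subsets, each library had its highest Egfr level in non-cycling progenitors and its highest Erbb3 level in the less sarcomere-rich muscle cells.

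Detection of ligand and receptor in the same cell was counted after thinning to 20000 UMIs. Both Areg and Egfr were found in 138 of 167 MyoD-KO Crabp1/Dcn-positive cells (82.6%), where 97.0% had an Areg UMI and 85.6% an Egfr UMI on their own. The shares with both were 32.3% in the remainder, 15.7% in Car9-positive, 11.6% in Pax7-positive (306 of 2638) and 1.07% in Myog-positive cells, and 0.710% in MyoD-WT Pax7-positive cells. Among MyoD-KO Pax7-positive cells, 54.4% of those with an Areg UMI had an Egfr UMI, against 35.6% of those without. In Car9-positive cells these shares were 51.2% and 46.0%, and in the remainder 66.3% and 28.2%. Areg and Ereg were found together in 85.0% of Crabp1/Dcn-positive cells, and Erbb2 and Erbb3 together in 16.3% of MyoD-WT and 10.4% of MyoD-KO muscle-rich cells. Egfr and Erbb3 shared 5.12% of MyoD-WT but 0.758% of MyoD-KO Pax7-positive cells. On their own, Egfr was found in 21.9% and 39.6% of these cells and Erbb3 in 27.5% and 2.92%.

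The other 8 family genes in the files gave a wider view of the possible ligands. Egf was at 11.4 CPM in the MyoD-WT and 5.56 CPM in the MyoD-KO library (ratio 0.486, 0.456 to 0.518), so that it exceeded each of the 4 ligands above in the MyoD-WT library on the scale of captured 3' ends. Nrg1, a ligand of ERBB3, was at 0.595 CPM and 3.69 CPM, and reached 20.5 CPM in MyoD-KO Crabp1/Dcn-positive cells and 6.56 CPM in Car9-positive cells. Tgfa, Epgn, Nrg2, Nrg3 and Nrg4 each stayed below 1 CPM in both libraries. Erbb4, the other neuregulin receptor, was at 13.1 CPM and 10.4 CPM, with 26.6 CPM and 28.6 CPM in Myog-positive cells and 27.6 CPM and 13.9 CPM in muscle-rich cells.

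Of the pathway lists other than the ligands, the ERK-induced genes had the highest median ratio between the libraries. Of 14 listed ERK-induced genes 13 reached 10 CPM, and 9 of these were higher and none was lower, where 13.4% and 3.37% of all genes were. Their median log2 ratio was 1.76, against 0.13 over 12237 genes with a mean of at least 1 CPM. Fosl1, a partner in the AP-1 transcription factor, was at 0.527 CPM and 29.4 CPM, Ier3 at 2.40 CPM and 63.5 CPM, and Egr3 at 2.39 CPM and 14.97 CPM. Within populations the count higher was 9 of the 13 that reached 10 CPM in Pax7-positive cells (13.5% of all genes), 4 of 7 in Myog-positive (10.4%), 6 of 9 in muscle-rich (11.6%), 8 of 13 in Car9-positive (12.6%) and 9 of 13 in remaining cells (16.1%). Of 10 listed cAMP-induced genes 7 reached 10 CPM and 3 were higher (Fosb, Nr4a1 and Dusp1), beside 13.4% of all genes. Of 6 YAP/TEAD targets 4 reached it and over all cells none was higher or lower. The medians were 0.33 and -0.30. Within populations YAP/TEAD targets went both ways. Of 4 reaching 10 CPM in Pax7-positive cells 1 was higher and 2 were lower (13.5% and 3.89% of all genes). In Car9-positive cells 1 of 3 was higher and 1 lower (12.6% and 2.65%). In remaining cells 1 of 5 was higher and 2 were lower (16.1% and 4.51%). In Myog-positive cells 1 of 4 was lower (4.35%), and in muscle-rich cells none of 4 was called. The ERK-induced genes did not share 1 order across MyoD-KO populations. Fosl1 was at 115 CPM in Crabp1/Dcn-positive and 27.0 CPM in Pax7-positive cells and Ier3 at 422 CPM and 43.9 CPM, but Fos was at 37.4 CPM and 106 CPM, Egr1 at 146 CPM and 210.2 CPM and Myc at 14.1 CPM and 33.5 CPM.

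Of 16 feedback inhibitors 13 reached 10 CPM, and 3 of these were higher and 2 lower (13.4% and 3.37% of all genes), with a median of 0.24. Errfi1, whose product inhibits the EGFR kinase directly, was at 23.5 CPM in the MyoD-WT and 126 CPM in the MyoD-KO library, a ratio of 5.36. Its MyoD-KO levels were 669 CPM in Crabp1/Dcn-positive, 252 CPM in remaining, 134 CPM in Pax7-positive, 131 CPM in Car9-positive, 52.3 CPM in Myog-positive and 35.0 CPM in muscle-rich cells. The ERK phosphatase gene Dusp6 was at 6.89 CPM and 23.4 CPM and Socs5 at 8.17 CPM and 26.3 CPM. Spry4, which encodes a Sprouty inhibitor, was lower at 19.1 CPM and 6.02 CPM, as was Lrig3 at 17.5 CPM and 6.84 CPM.

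Genes for ligand release and for the kinases below the receptors had lower median ratios than the ERK-induced genes. Of 9 shedding genes 5 reached 10 CPM, and over all cells none of these 5 was 2-fold apart, with Adam10 at 43.0 CPM and 82.5 CPM, Adam9 at 11.3 CPM and 17.9 CPM and Adam19 at 73.5 CPM and 45.2 CPM. Within populations Adam10 was higher in Pax7-positive and remaining cells, Adam9 in muscle-rich, Adam15 in Car9-positive and Timp3 in remaining cells, and Adam19 was lower in Myog-positive and muscle-rich cells. Below the minimum over all cells, Adam15 was at 0.806 CPM and 8.16 CPM, Timp3 at 0.885 CPM and 3.86 CPM and Rhbdf2 at 0.190 CPM and 0.881 CPM. The median log2 ratio of the list was 0.54. Adam17, the main protease for amphiregulin release, was at 39.4 CPM and 45.8 CPM. Of 18 adaptors and kinases, which all reached 10 CPM, 2 were higher beside 13.4% of all genes, Mapk3 (19.8 CPM and 43.1 CPM) and the PI3K subunit Pik3r1 (8.03 CPM and 30.2 CPM), and the list's median was -0.01.

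The genes with the most similar patterns were found by Pearson correlation of log2(CPM + 1) over 11 points, the populations of at least 50 cells in both libraries, among 9984 genes. These points share 2 libraries and are a description only. Closest to Areg were Prkcb (0.989), S1pr3 (0.987) and Gsta4 (0.987), to Ereg Gsta2 (0.988), Sema7a (0.986) and Plcb1 (0.986), and to Btc Egr2 (0.989), Camk2n1 (0.984) and Gpr137b (0.977). Egfr was most like the collagen VI genes Col6a2 (0.993) and Col6a1 (0.988) and the gene 1700017B05Rik (0.991). Closest to Erbb3 were Pdlim7 (0.976), Rassf3 (0.967) and Alpk3 (0.965), to Erbb2 Kif1b (0.980), Twf2 (0.973) and Dusp1 (0.972), and to Hbegf Yjefn3 (0.922), Syngr1 (0.905) and Atg12 (0.899).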

How the data were processed

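The deposited matrices hold whole-number UMI counts per gene and cell barcode, written by Cell Ranger 7.2.0 per the file headers. The submitters' processing notes name Cell Ranger, Seurat and GRCm39 without roles, and the annotation release is not given in the sources used here. The libraries had 8191 and 7670 barcodes (MyoD-WT, MyoD-KO). Barcodes with fewer than 1000 genes or over 15% mitochondrial UMIs were left out, which removed 873 and 1888. No comparison of genotypes has replicates, so no test was run.

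Populations were set by the thresholds given with the results, each also requiring 2 or 3 UMIs (3 for Crabp1 plus Dcn and for Myog, 2 for Car9 and Pax7). A cell took the first gate it passed, in the order muscle-rich, Crabp1/Dcn, Car9, Myog, Pax7, and 430 MyoD-KO and 160 MyoD-WT cells passed both the Car9 and Pax7 gates. UMIs were summed per population and divided by its total (CPM), with exact Poisson intervals for levels, exact Clopper-Pearson intervals for shares and exact conditional intervals for ratios, all at 95%. Shares of cells were compared after thinning to 5000 or 20000 UMIs, leaving out 80 or 385 shallower MyoD-WT and 169 or 399 MyoD-KO cells. Scrublet (scanpy 1.11.5, expected rate 0.06) marked 2 MyoD-WT cells, and 144 MyoD-KO cells with one random seed and 0 with another, so its calls were not relied on and no doublets were removed. The labels do not say that doublets were removed earlier.

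The members and gene lists were chosen with earlier results of these data known. Adam15, Adam17, Timp3, Rhbdf2, Spry4, Lrig3, Fos, Egr1, Myc, Mymk, Actg2 and Myh11 were named after their values were seen. So were Cdkn1c, Dll1, Mymx, Msc, Itga7, Vcam1 and Calcr. Genes otherwise named are the 7 members, 8 relatives, the 3 genes most like each member, and up to 3 genes per pathway list. The pathway genes had the largest ratio among those reaching 10 CPM. One gene that this rule names is not reported here. Alternatives were halved and doubled gates, gates taken singly, all barcodes, other minimums and folds, TMM (edgeR 4.0.16) and DESeq2 1.42.0 size factors used for scaling only, and removal of Crabp1/Dcn-positive cells or of likely doublets. Those on doublets by the caller's marks, on thinning and on single populations were chosen after seeing the data. Scripts ran in Python 3.11.15 with scipy 1.17.1, numpy 2.4.6 and pandas 2.3.3, and in R 4.3.3. Only the rule for calls and the ratio intervals were tested on simulated data, which were Poisson counts of whole libraries without spread between cells.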

Additional observations from a re-analysis of the deposited data

Results flagged for a closer look

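Barcodes left out by the filter on genes and mitochondrial UMIs (873 MyoD-WT and 1888 MyoD-KO, with medians of 2669 and 2760.5 UMIs) held ligand transcripts above the level in the same MyoD-WT barcodes. Areg was at 10.1 CPM in the MyoD-KO barcodes and 0.982 CPM in the MyoD-WT ones. Hbegf was at 11.9 CPM and 6.87 CPM. In the kept cells Hbegf had the opposite order, at 3.37 CPM in the MyoD-KO and 4.43 CPM in the MyoD-WT library.

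Egf was higher in the MyoD-KO library in muscle-rich cells, with a ratio of 1.67 (6.53 CPM and 10.9 CPM), and lower in it in the other populations. Its ratio was 0.343 in Pax7-positive, 0.457 in Myog-positive, 0.383 in Car9-positive and 0.306 in remaining cells. The difference between populations was not tested, since each genotype had 1 library.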

How the results depend on the processing

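No paired analysis was possible because each genotype had 1 library. Under TMM and DESeq2 factors the median log2 ratio of tested genes moved from 0.08 to -0.12 and -0.11, the share of higher genes among those called from 79.9% to 66.4% and 67.1%, and the genes called lower from 296 to 471 and 460, by construction of the scaling. Members called kept their direction: with TMM the overall log2 ratios were 5.14 for Areg, 4.39 for Ereg, 1.08 for Egfr and -1.56 for Erbb3. With no minimum level 5123 genes were higher (1178 with it), 1881 lower and 4 members higher. At 3-fold 671 genes were higher and 124 lower, 2 members higher and 0 lower. Without Crabp1/Dcn-positive cells 2 members were higher. Crabp1/Dcn-positive cells held 49.95% of MyoD-KO Areg UMIs with gates halved, 45.3% doubled, 49.5% with the gate taken alone and 49.8% without the 6% highest doublet scores (47.9% as reported). Car9-positive cells held 23.0% and 8.77% of MyoD-WT Areg with gates halved and doubled (12.4%). Pax7-positive cells held 46.9% of MyoD-KO Egfr with gates doubled, 68.6% with the gate alone, 54.6% without the 6% highest doublet scores and 53.5% without cells the caller marked (52.1%). They held 78.3%, 63.6%, 85.9% and 81.2% of MyoD-WT Egfr with gates halved, doubled, alone and without the 6% highest scores (76.8%). Within populations, removing those 6% lowered the Areg log2 ratio in muscle-rich cells from 4.21 to 2.49 (5.04 CPM in MyoD-KO, under the minimum), and Erbb3 there passed 2-fold with TMM (-1.08) and all barcodes (-1.05) against -0.94. Of 252 further alternative values, 80 lay outside the counting interval of the reported value and 172 within it. By direction alone, 239 of the 252 were unchanged. The 13 others belonged to uncalled values, such as Erbb3 in Car9-positive cells (-1.12, but 0.71 with gates doubled and 0.76 with the gate alone), Hbegf there (-0.74, but 0.47 and 0.25) and Erbb2 in Myog-positive cells (-0.21, but 1.37 with gates halved). The causes were not tested. Low UMI counts limit Btc, Ereg and Erbb2 in the MyoD-WT library.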

Other observations

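In the barcodes left out by the filter, Erbb3 and Egfr were lower in the MyoD-KO than in the MyoD-WT library. Erbb3 was at 62.7 CPM in MyoD-WT and 31.6 CPM in MyoD-KO barcodes, Egfr at 18.2 CPM and 9.12 CPM, and Erbb2 at 10.3 CPM and 9.39 CPM with overlapping counting intervals. For Egfr this is the opposite order from the kept cells, where the levels were 16.5 CPM and 39.6 CPM.

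The 7 MyoD-WT Crabp1/Dcn-positive cells held 59 Egfr UMIs, 29 of them in 1 cell. They also held 29 Ereg UMIs, 21 of them in 1 cell, and 11 Btc UMIs, all in 1 cell.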
